A study of Mus musculus with 4 samples.

Results

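The peaks described here are the Gata4 ChIP-seq peaks at the genes for cytosolic ribosomal proteins. A peak was taken when its deposited gene name was Rpl or Rps followed by a digit, or *Rplp0*, *Rplp1*, *Rplp2* or *Rpsa*, leaving out the S6 kinases (names beginning Rps6k), *Rpl7l1*, *Rpl22l1*, *Rpl39l*, *Rps19bp1*, *Rps27l* and pseudogenes. The rule used names alone and no measured value. It found 70 of the 20410 peaks of WT Flk1(+) mesoderm cells and 174 of the 22733 peaks of DKO Flk1(+) mesoderm cells, 244 of 43143 in all, each counted once. The names belong to 80 genes, and with *Rpl10l*, which the rule covers but no peak names, there are 81, of which 46 encode proteins of the large subunit, 32 of the small subunit and 3 of the P-stalk.

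The ribosome makes every protein of the cell from a large subunit, which joins amino acids, and a small subunit, which reads the messenger RNA. Ribosomal protein genes are active in nearly all cell types, and their promoters are mostly CpG-rich, lack a TATA box and often begin transcription at a C within a run of pyrimidines (the TCT initiator). Gata4 is a zinc-finger transcription factor of endoderm, heart and other mesoderm-derived tissues that binds the letters GATA. Dnmt3a and Dnmt3b add new methyl groups to CpGs, and CpG-rich promoters of active genes usually carry little methylation.

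All cells were J1 ES cells of 129 background, or came from them, and expressed Gata4GR from the CAG promoter. In Gata4GR the hormone-binding part of the glucocorticoid receptor is joined to Gata4, so that dexamethasone (Dex) brings the protein into the nucleus. WT cells were wild type, from clone J1G4.2 as the label spells it, and DKO cells were Dnmt3a-/-Dnmt3b-/-, from clone 16G4.3. Flk1(+) cells were differentiated on OP9 stroma to day 4.5, treated with 100 nM Dex for 3 hr and sorted by magnetic beads for Flk1, a receptor of mesoderm cells, and undifferentiated WT and DKO ES cells without Dex gave the background. A mixture of 3 antibodies to GATA4 was used for all of them. There were 4 libraries, 1 per condition, so genotype cannot be told apart from clone or library, and no test between WT and DKO was possible. Shares carry 95% Wilson intervals and medians carry 95% order-statistic intervals, which cover the number of peaks or genes in a library and not the spread between cultures. Several peaks can lie at 1 start, and intervals over peaks treat them as independent, so these are likely too narrow. The lists hold no expression, so the Flk1 sort could not be checked against marker genes. The study's methods give more mapped reads for the DKO than for the WT Flk1(+) library, while the depth of the ES libraries and the scaling of the heights are not given in the sources used here. Depth and genotype therefore cannot be told apart in any difference between the lists below, the number of peaks at starts included.

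The sequences under the peaks show first what these sites look like. The 5 tallest WT peaks near ribosomal protein gene starts are shown because none of them has the Gata motif WGATAA, where W is A or T, at its position. Each stretch below runs over 30 bases of the mm9 plus strand around the peak position, and capitals mark matches to the motifs searched.
*Rpl9*, chr5:65782711-65782740: tttaaggcggaactactcgattgccgagct
*Rps16*, chr7:29135704-29135733: cgtgacgtagcactcaatgcgcctgcgcag
*Rpl22*, chr4:151699854-151699883: tacttaggtggcagggaagggcgatcgaga
*Rpl27*, chr11:101303644-101303673: ccaccaaccgtggggcatggctgggcctgg
*Rpl13*, chr8:125626238-125626267: CCTTTCgcctgattttgATTGGcgtttgag
At *Rpl13* the capitals are a pyrimidine initiator match and, read on the other strand, the CCAAT letters of Nfy, and the first 4 stretches hold no match to any motif searched.

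WGATAA letters did stand in a minority of the start peaks. The following are all the matches (AGATAA or TGATAA, either strand, in capitals) within 50 bp of the position of a start peak in either list.
*Rps4x*, chrX:99384550-99384579, DKO: ccgcgggagcccTGATAAcccgggcagcat
*Rps26*, chr10:128063704-128063733, DKO: aatgtagggttgTGATAAgtccctagaaat
*Rpl36a*, chrX:131120080-131120109, WT: cgtctgcaacgaAGATAAatcatccaggca
*Rpl23a*, chr11:77996629-77996658, DKO: taccacaggcaaAGATAAttaacccgttgt
*Rpl8*, chr15:76734474-76734503, DKO: ccccgccccggaAGATAAggctgcgttgac
*Rpl35*, chr2:38859994-38860023, both lists: ttttagtcatggTGATAAgagatcaactcg
*Rpl4*, chr9:64021106-64021135, WT: ctaatttgatttTGATAAggggcaggatgc
The DKO peaks of *Rps4x*, *Rps26*, *Rpl23a* and *Rpl8* had heights of 6.01, 6.66, 5.30 and 6.80. The WT peak of *Rpl36a* had a height of 6.50, and those of *Rpl35* and *Rpl4* with these matches had 9.62 and 8.82. The DKO peak of *Rpl35* had 7.79. The caller took no peak under a height of 5.

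Nearly every ribosomal protein gene had a Gata4 peak at its start in DKO, and a smaller share did in WT. A start peak means here a peak position within 1 kb of the gene's 5′ end. In DKO, 78 of 81 genes had one (96.3%, 89.7 to 98.7), where 33.7% of all 22238 protein-coding genes did. In WT, 38 of 81 had one (46.9%, 36.4 to 57.7), where 21.2% of all genes did. Both counts therefore stood above their background, by more in DKO, the more deeply sequenced library. With any peak within 5 kb of the gene, which is the reach of the deposited gene names, the counts were 79 in DKO against a background of 45.5%, and 50 in WT against 36.4%.

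The starts of these genes are rich in CpGs, and so the same count was made over the 11993 genes with at least 20 CpGs around the annotated start, a comparison chosen after the data had been seen. Of those genes, 55.6% had a start peak in DKO and 34.5% in WT. The 76 ribosomal protein genes among them had one in 97.4% (90.9 to 99.3) in DKO and in 46.1% (35.3 to 57.2) in WT. The DKO share lay far from that of CpG-rich starts in general, and the interval of the WT share began just above it.

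**Figure D1:**
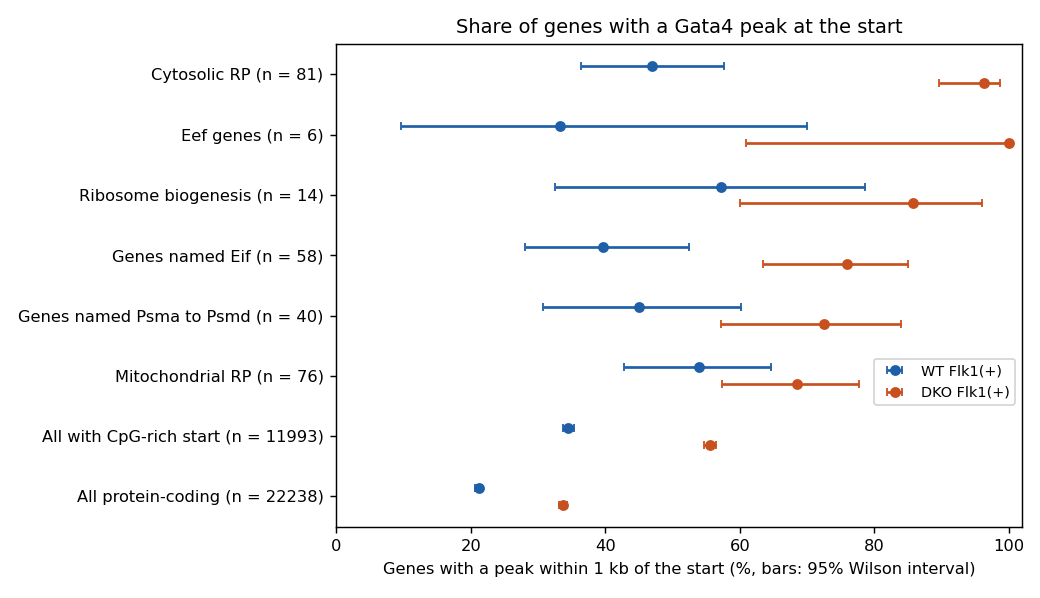
Share of genes with a peak within 1 kb of the start, in percent, for cytosolic ribosomal protein (RP) genes, the other gene lists and all genes, in WT (blue) and DKO (orange), with bars for the 95% Wilson interval. Cytosolic RP genes sit at 46.9% in WT and 96.3% in DKO, with all protein-coding genes at 21.2% and 33.7%.

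A start peak in both lists was found at 37 genes, in DKO alone at 41 (50.6%), in WT alone at 1 and in neither at 2. Over all genes, 17.0% had a start peak in DKO alone and 4.45% in WT alone, and over genes with a CpG-rich start 27.6% and 6.55%. Of the 38 genes with a WT start peak, 37 also had one in DKO, which the DKO count of 78 of 81 genes nearly fixes by itself. The 41 others were present in the DKO list only. Of the 41, 11 had a WT peak elsewhere within 5 kb of the gene and 30 had none. A gene with no peak in a list has no value there, and its signal may lie anywhere under the caller's limits.

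In the large subunit, 22 of 46 genes had a start peak in WT and 43 in DKO. Those with one in both lists were *Rpl4*, *Rpl7*, *Rpl9*, *Rpl10a*, *Rpl11*, *Rpl13*, *Rpl13a*, *Rpl15*, *Rpl19*, *Rpl22*, *Rpl23a*, *Rpl27*, *Rpl29*, *Rpl31*, *Rpl34*, *Rpl35*, *Rpl35a*, *Rpl36*, *Rpl36a*, *Rpl38* and *Rpl41*. Those with one in DKO alone included *Rpl3*, *Rpl5*, *Rpl6*, *Rpl7a*, *Rpl8*, *Rpl10*, *Rpl12*, *Rpl14*, *Rpl17*, *Rpl18*, *Rpl21*, *Rpl24*, *Rpl26*, *Rpl27a*, *Rpl28*, *Rpl30*, *Rpl32*, *Rpl36al*, *Rpl37*, *Rpl37a* and *Rpl39*. *Rpl5* and *Rpl11*, whose proteins together carry the 5S ribosomal RNA into the large subunit, fell on different sides of this division. *Rpl5* had a DKO peak of height 10.6 and none in WT, whereas *Rpl11* had 8.33 in WT and 7.18 in DKO.

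*Rpl23* was the reverse case, with 2 start peaks in WT, of heights 14.9 and 6.36, and no DKO peak nearer than 17086 bp. The taller lay 63 bp upstream of the start on chromosome 11 and had a height of 3.37 in WT ES cells. Absence from the DKO list does not say which of the caller's limits the site missed. *Rpl10l*, a testis paralogue of *Rpl10*, had no peak within 5 kb in either list, and *Rpl3l*, a muscle paralogue of *Rpl3*, had none at its start. The paralogue *Rpl36al* did have start peaks, 3 in DKO with the tallest at 6.72 and none in WT.

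In the small subunit, all 32 genes had a start peak in DKO (89.3 to 100%) and 16 had one in WT (50%, 33.6 to 66.4). The 16 with a peak in both lists included *Rps3*, *Rps3a*, *Rps10*, *Rps13*, *Rps15*, *Rps16*, *Rps19*, *Rps20*, *Rps21*, *Rps23*, *Rps24*, *Rps27*, *Rps27a* and *Rpsa*. Those in DKO alone included *Rps2*, *Rps4x*, *Rps4y2*, *Rps6*, *Rps7*, *Rps9*, *Rps12*, *Rps14*, *Rps15a*, *Rps18*, *Rps25*, *Rps26*, *Rps28* and *Rps29*. *Rps6*, the substrate of the S6 kinases, belonged to the latter with a low peak of 6.31 and an enrichment over DKO ES cells of 3.03, just over the caller's limit of 3. The small and the large subunit had similar shares in each list, and their intervals overlapped.

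The P-stalk, a flexible arm of the large subunit that recruits elongation factors, is encoded by *Rplp0*, *Rplp1* and *Rplp2*. None of them had a WT peak within 5 kb, and all 3 had a start peak in DKO. *Rplp1* had DKO peaks of 14.6 at 89 bp downstream and 11.8 at 246 bp upstream of the start. *Rplp0* had a DKO peak of 11.1 at 100 bp upstream, and *Rplp2* had 10.3 at 181 bp upstream and 6.08 at 302 bp downstream. *Rpsa*, which encodes a small subunit protein also known as the laminin receptor, had WT peaks of 5.31 and 5.13 and a DKO peak of 7.20, with the taller WT peak and the DKO peak 12 bp apart.

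**Figure D2:**
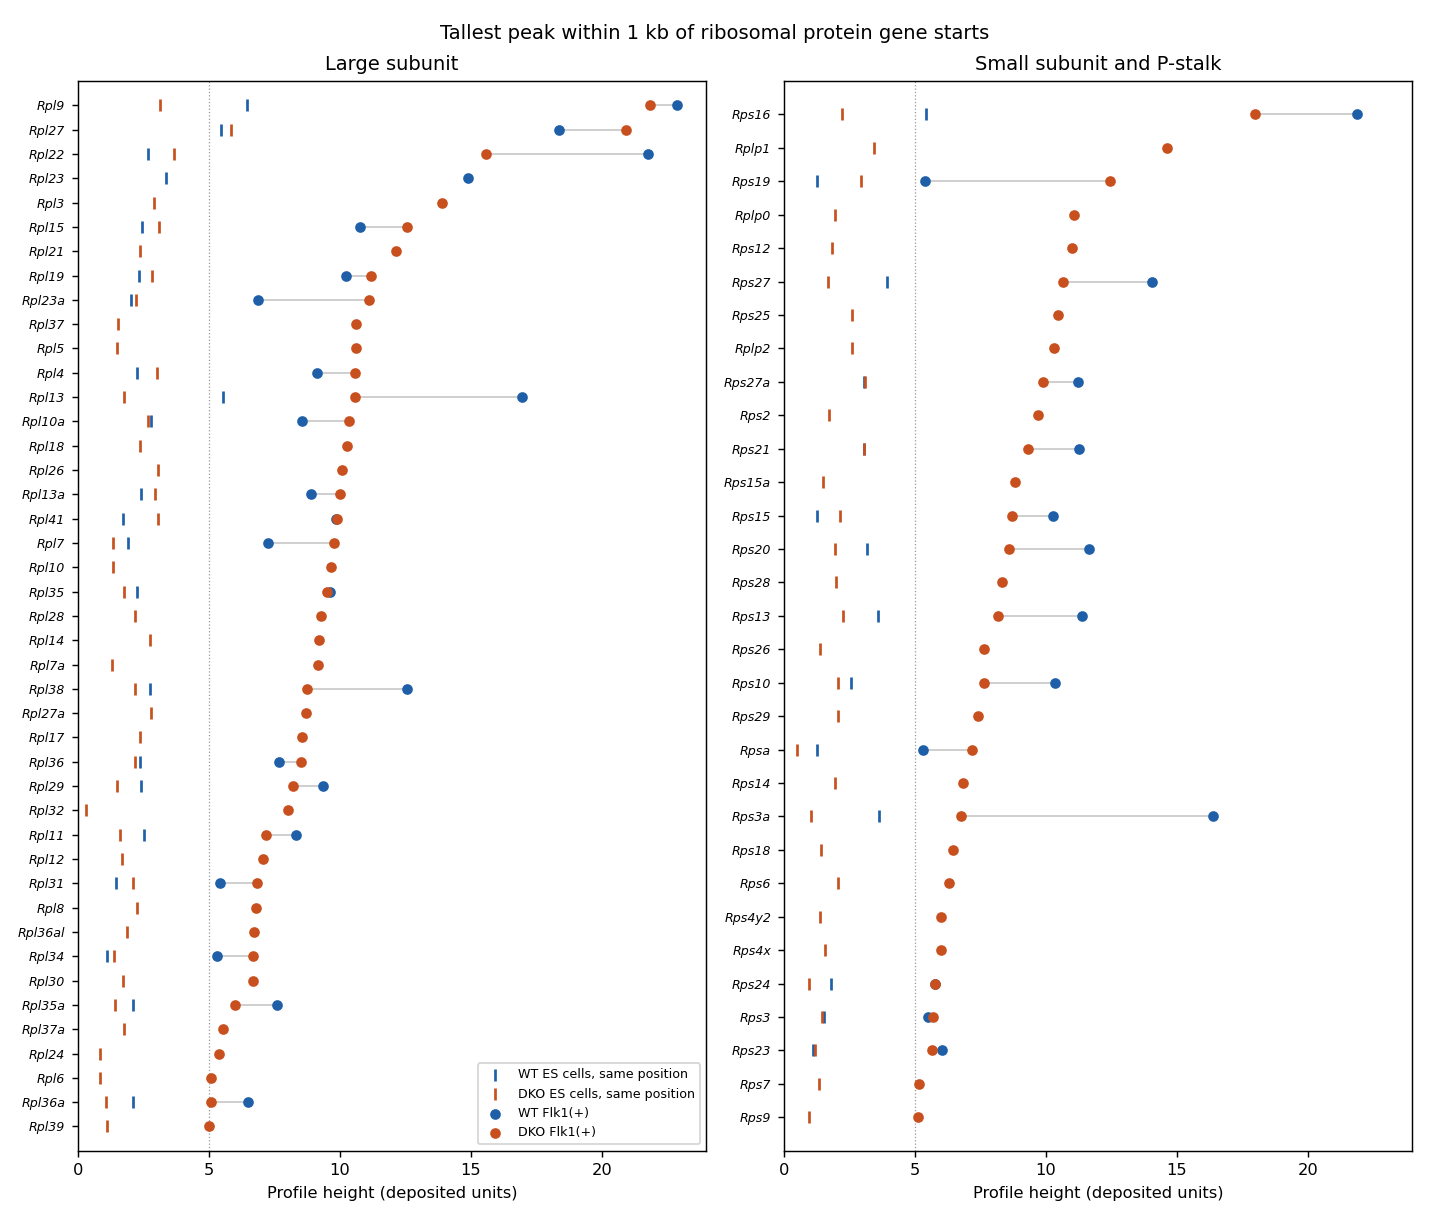
Height of the tallest peak within 1 kb of the start of each ribosomal protein gene shown (deposited units), in WT (blue dots) and DKO (orange dots), with ticks for the height in ES cells of the same genotype at that position and a dotted line at the caller's minimum of 5. *Rpl9*, *Rpl27*, *Rps16* and *Rpl22* lead in both lists, and a row with an orange dot alone is 1 of the 41 genes with a start peak in DKO only.

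The tallest peaks stood at the same 4 genes in both lists. In WT the order was *Rpl9* at 22.9, *Rps16* at 21.9, *Rpl22* at 21.8, *Rpl27* at 18.4 and *Rpl13* at 16.9. In DKO it was *Rpl9* at 21.8, *Rpl27* at 20.9, *Rps16* at 18.0 and *Rpl22* at 15.6, followed by a peak at 15.6 that lay 7705 bp from the start of *Rplp2* and 167 bp from that of *Pnpla2*. These heights belong to single libraries and have no replicate error, so neighbours in either order cannot be ranked against each other.

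Positions at these genes also agreed closely between the lists. The *Rps16* peaks lay 2 bp apart, the *Rpl9* peaks 6 bp, the *Rpl22* peaks 22 bp and the *Rpl27* peaks 70 bp. *Rpl22*, which is best known for its part in lymphocyte development, differed from the other 3 in WT by its low ES height of 2.67, which gave it an enrichment of 8.16. The WT ES heights of *Rpl9*, *Rps16* and *Rpl27* were 6.47, 5.41 and 5.45, with enrichments of 3.54, 4.04 and 3.37.

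ES cells without Dex thus had signal at the tallest sites. The highest WT ES heights under ribosomal protein peaks were those of *Rpl9*, *Rpl13* (5.55), *Rpl27*, *Rps16* and a *Rpl41* peak (4.42). The highest in DKO ES cells were those of *Rpl27* (5.87), peaks 5164 bp from the start of *Rpl12* (4.45), 6006 bp from *Rpl4* (4.26) and 4258 bp from *Rps18* (4.14), and *Rpl22* (3.68). *Rpl27* alone was among the 5 in both genotypes. At the tallest DKO start peaks of *Rpl9*, *Rps16* and *Rpl13*, DKO ES cells had heights of 3.15, 2.24 and 1.75.

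Over all start peaks of ribosomal protein genes, the median height was 9.11 (7.69 to 10.3) for the 44 in WT and 7.37 (6.83 to 8.26) for the 133 in DKO. All peaks within 1 kb of any gene start, called promoter peaks below, had medians of 8.44 in WT and 7.56 in DKO, inside those intervals. The ES height had a median of 2.39 (2.09 to 2.57) in WT and 1.69 (1.56 to 1.87) in DKO, where promoter peaks had 2.17 and 1.86. None of the 44 WT start peaks had an ES height under 1 (0 to 8.03%), and 12 of 133 in DKO did (9.02%, 5.24 to 15.1), among them *Rpl32* at 0.306 and *Rpsa* at 0.515. The shares of promoter peaks, 4.23% in WT and 6.73% in DKO, lay inside these intervals. In height and ES signal, the median of promoter peaks lay inside the interval of the ribosomal protein starts in each list. For the DKO ES height it lay almost at the upper end. The median of 1.92 over DKO promoter peaks with at least 20 CpGs in their sequence lay just above that interval.

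The enrichment, which is the height in Flk1(+) cells over that in ES cells with an ES height under 1 taken as 1, had a median of 3.67 (3.57 to 4.03) in WT and 4.26 (4.04 to 4.44) in DKO. Promoter peaks had 3.80 and 3.96. An enrichment under 4 was found for 61.4% (46.6 to 74.3) of WT start peaks and 38.3% (30.5 to 46.8) of DKO start peaks, with 58.3% and 51.3% for promoter peaks. In WT the promoter median lay inside the interval of the ribosomal protein starts, while in DKO it lay below it and fewer of their peaks stood near the caller's limit of 3.

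Genes with a start peak in DKO alone had a lower median DKO height than those with one in both lists. The tallest DKO start peak had a median of 8.54 and a range of 5.00 to 14.6 over these 41 genes, and a median of 9.31 and a range of 5.07 to 21.8 over the 37 genes with a start peak in both lists. The ranges overlapped broadly, and the medians of the enrichment were 4.30 and 4.26. Among the tallest of the 41 were *Rplp1* at 14.6, *Rpl3* at 13.9 and *Rpl21* at 12.2. *Rpl3* encodes a large subunit protein close to the peptidyl transferase center, and its DKO peak lay 48 bp upstream of the start.

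DKO starts often held several peaks, at these genes and at genes in general. The 78 genes shared 133 start peaks, 1.71 per gene, and 38 of them had at least 2 (48.7%, 37.9 to 59.6), against 40.7% of all genes with a start peak. In WT the 38 genes shared 44 start peaks, 1.16 per gene, and 5 had at least 2 (13.2%, 5.75 to 27.3), against 18.9% of all such genes. Both backgrounds lay inside the intervals, so several peaks per start are not a result about these genes. *Rpl4*, whose protein lines the exit tunnel of the ribosome, had 4 DKO start peaks of 10.6, 10.3, 7.78 and 5.91 and 3 WT start peaks of 9.13, 9.08 and 8.82. *Rpl10a*, *Rpl13a*, *Rpl15* and *Rps25* also had 4 in DKO, where WT had 1 at each of the first 3 and none at *Rps25*. Several peaks at 1 start are neighbouring maxima of the same profile and are not independent sites.

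Most ribosomal protein peaks lay near the start of their gene. In WT 44 of 70 (62.9%, 51.1 to 73.2) and in DKO 133 of 174 (76.4%, 69.6 to 82.1) were within 1 kb. A gene name requires a peak within 5 kb of the gene, and of the peaks with any gene name 41.2% in WT and 61.4% in DKO lay within 1 kb of a gene start, below both intervals. The length of the genes was not taken into account. Within 250 bp the counts were 39 of 70 in WT (55.7%, 44.1 to 66.8) and 92 of 174 in DKO (52.9%, 45.5 to 60.1). Of the peaks with any gene name, 28.9% in WT and 38.9% in DKO lay that near a gene start. The median position of start peaks was 43 bp upstream of the start in WT and 41 bp downstream in DKO, and 36.4% (23.8 to 51.1) of WT and 55.6% (47.2 to 63.8) of DKO start peaks lay downstream. The same shift was present in all promoter peaks, of which 38.6% lay downstream in WT and 52.9% in DKO. The ribosomal protein starts therefore did not stand apart from other starts in this respect.

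**Figure D3:**
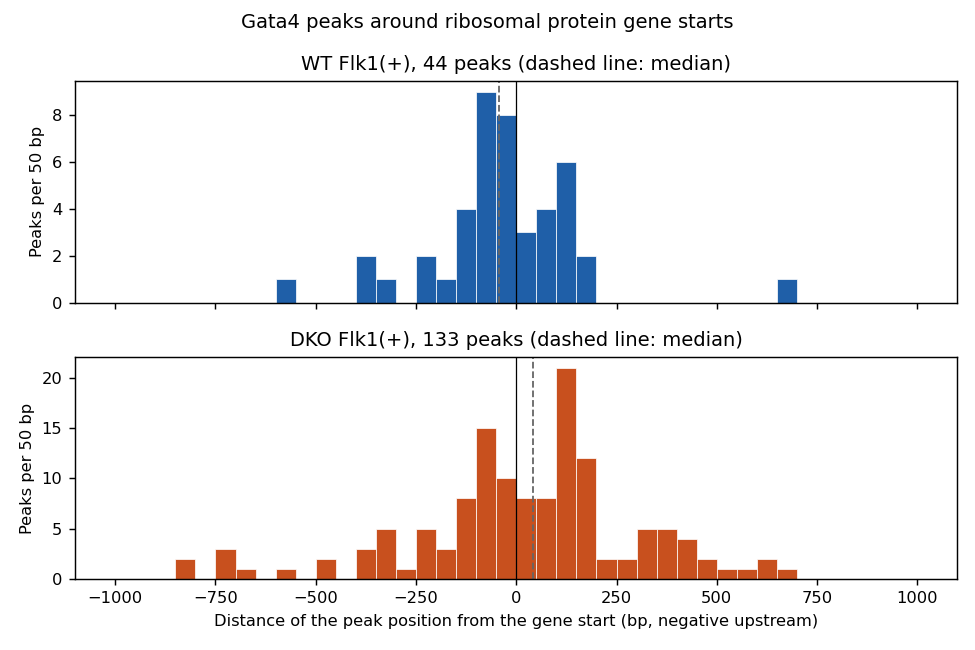
Positions of the start peaks relative to the start of the ribosomal protein gene, in bp with upstream negative, as peaks per 50-bp bin in WT (44 peaks, upper panel) and DKO (133 peaks, lower panel). The median, a dashed line, is 43 bp upstream in WT and 41 bp downstream in DKO.

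The remaining 26 WT and 41 DKO peaks lay over 1 kb from the start of the ribosomal protein gene, with heights of 5.37 to 16.6 in WT and 5.03 to 15.6 in DKO. Of these, 15 in WT and 29 in DKO were within 1 kb of the start of another gene, and so carry the name of the ribosomal protein gene only as a neighbour. The tallest in WT were 16.6 at 1586 bp from the start of *Rpl41* and 162 bp from that of *Zc3h10*, 16.3 at *Rpl24* and 53 bp from the start of *Zbtb11*, and 15.7 at 2446 bp upstream of *Rpl14*. The tallest in DKO were the *Rplp2* neighbour given above, 13.5 near *Rpl4* and 96 bp from the start of *Snapc5*, and 13.4 near *Rpl12*. Both kinds of start were over 1 kb away for 11 WT and 12 DKO peaks, of which those of *Rpl14*, *Rpl3*, *Rpl12* and *Rps15a* had a counterpart in the other list.

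Of the 70 WT peaks, 55 had a DKO peak within 500 bp (78.6%, 67.6 to 86.6), where 45.6% of all WT peaks and 73.8% of WT promoter peaks did. Of the 174 DKO peaks, 80 had a WT peak within 500 bp (46.0%, 38.7 to 53.4), where 45.1% of all DKO peaks and 45.5% of DKO promoter peaks did. Among start peaks alone the shares were 41 of 44 in WT (93.2%, 81.8 to 97.7) and 60 of 133 in DKO (45.1%, 36.9 to 53.6). With a DKO start peak at 78 of 81 of these genes, a high share in WT was largely set by that count. The WT start peaks were found again in DKO more often than promoter peaks in general, with an interval that began above the 77.6% of CpG-rich promoter peaks. With positions within 100 bp the share was 63.6% (48.9 to 76.2), and the 51.2% of CpG-rich promoter peaks lay inside its interval, so this difference did not hold at the shorter distance. The DKO share was near the background and is not a result about these genes.

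Only sites present in both lists have a height in both, and 54 pairs of ribosomal protein peaks were the nearest to each other within 500 bp. The DKO height was the larger in 15 of 54 (27.8%, 17.6 to 40.9), where it was in 28.1% of all 8489 shared pairs. The median ratio of DKO to WT height was 0.827 (0.780 to 0.916), with 0.806 over all shared pairs. For the 40 pairs at starts the median ratio was 0.882 (0.808 to 0.939), with 0.938 over shared promoter pairs. The ribosomal protein sites as a whole therefore showed no shift from all shared pairs that their interval could separate. At starts the promoter median lay inside the interval but almost at its upper end. The 0.941 of shared CpG-rich promoter pairs lay just outside it. With pairs within 100 bp the interval at starts was 0.790 to 0.939, and it held both medians, 0.920 for promoter and 0.924 for CpG-rich promoter pairs.

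Single pairs spread widely around that median. The 3 lowest ratios were 0.322 at the upstream site of *Rpl14* (15.7 in WT and 5.06 in DKO), 0.413 at the start of *Rps3a* (16.4 and 6.77) and 0.450 at an internal site of *Rpl3* (15.0 and 6.73). The 3 highest were 1.66 at *Rpl19* (6.40 and 10.6), 1.36 at *Rpsa* (5.31 and 7.20) and 1.30 at a site 5305 bp from the start of *Rpl12* (9.76 and 12.7). At *Rps3a* the paired positions lay 196 bp apart, and the WT ES height of 3.62 against 1.05 in DKO ES cells moved the same way as the Flk1(+) height. Over the 54 pairs the median ES height as deposited was 2.42 in WT and 1.84 in DKO, with a median DKO to WT ratio of 0.765. Over all shared pairs these were 2.15, 1.52 and 0.694, so the lower ES height in DKO is not a result about these genes.

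**Figure D4:**
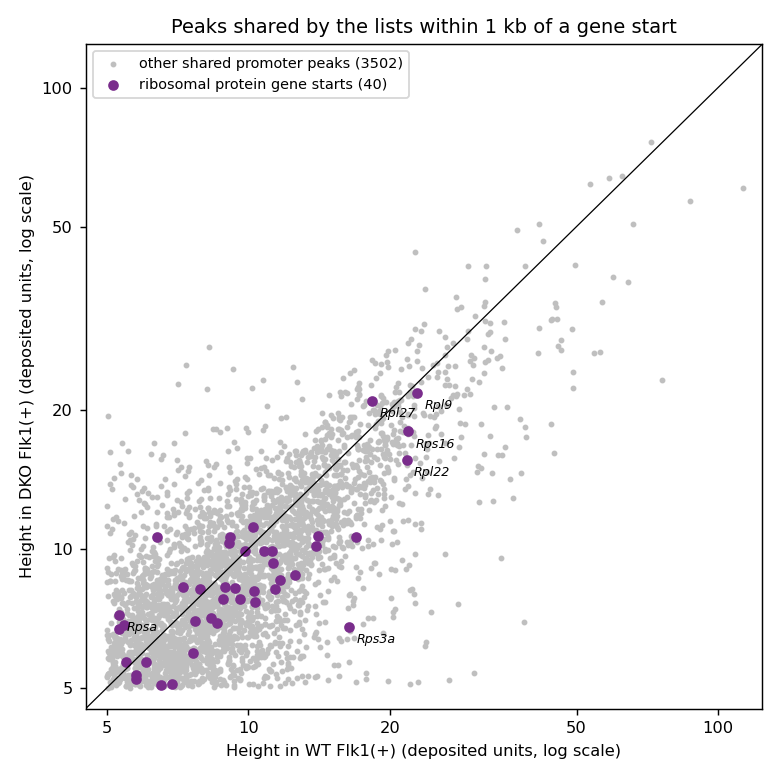
Height in WT (horizontal) against height in DKO (vertical), both in deposited units on log axes, for shared peaks within 1 kb of a gene start, with 40 pairs at ribosomal protein gene starts in purple, 3502 others in grey and a line at equal height. The purple points lie within the grey cloud, with a median DKO to WT ratio of 0.882 against 0.938 over all shared promoter pairs, and *Rps3a* at 0.413 is the lowest of them.

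WGATAA letters were found in the deposited sequence around 19 of 70 WT peaks (27.1%, 18.1 to 38.5) and 30 of 174 DKO peaks (17.2%). Over all peaks the shares were 61.9% in WT and 38.1% in DKO, more than at ribosomal protein genes in each list. Among start peaks, 8 of 44 in WT (18.2%, 9.51 to 32.0) and 21 of 133 in DKO (15.8%, 10.6 to 22.9) held a match, where promoter peaks had 21.5% and 14.2%. Start peaks of these genes therefore held GATA letters about as often as other promoter peaks. Of the matches in start peaks, 3 of 10 in WT and 5 of 24 in DKO lay in the central 100 bp, where 46.3% and 42.3% of matches did over all peaks and 31.6% and 24.9% over promoter peaks. A match in the windows of neighbouring peaks counts for each of them, as at *Rpl4* in both lists and *Rps26* in DKO, so these are not all distinct sites.

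The 8 WT start peaks with WGATAA belonged to *Rpl4* (2 peaks, 9.08 and 8.82), *Rps27* (14.1), *Rpl19* (10.2), *Rpl41* (9.84), *Rpl35* (9.62), *Rpl7* (7.25) and *Rpl36a* (6.50). The 21 in DKO ranged in height from 5.00 at *Rpl39* to 13.9 at *Rpl3*, with *Rplp1* at 11.8, *Rpl19* at 11.2, *Rps27* at 10.6 and *Rpl4* at 10.3 next. Apart from *Rpl36a*, each of the 7 WT genes also had a DKO start peak with a match. None of the 4 tallest genes of either list was among them. Away from starts, the WT site upstream of *Rpl14* held 2 matches at a height of 15.7, and a WT and a DKO peak within *Rps15a* held 2 each, at 10.4 and 6.47.

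Motifs of promoter factors were searched in the same windows on both strands. CCGGAAG, the core of Ets factors, stood in 31.8% of WT and 34.6% (27.0 to 43.0) of DKO start peaks, against 21.9% and 23.3% of promoter peaks. AAGATGG, the core of YY1, stood in 22.7% (12.8 to 37.0) and 23.3% (16.9 to 31.2), against 11.2% and 11.4%. Both stood above the promoter share in each list. The interval of YY1 lay wholly above it in both lists, and that of Ets in DKO only. Windows of neighbouring peaks at a start overlap, so the same letters can be counted more than once. The intervals of these motif shares are therefore likely too narrow, in DKO above all. GGGCGG of Sp1 stood in 77.3% (63.0 to 87.2) and 68.4% (60.1 to 75.7), against 76.2% and 76.5%, so in DKO its interval lay wholly below the promoter share. CCAAT of Nfy stood in 38.6% and 39.8%, against 52.6% and 46.4%. TATAAA stood in 6.82% and 9.77%, against 7.45% and 6.62%. For Nfy and TATAAA the promoter shares lay inside the intervals. Windows with the TCT initiator letters were 90.9% and 85.7%, against 70.8% and 66.1%, but these letters are short and frequent.

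The initiator is better read at the start itself, in RefSeq promoter sequences of GRCm38.p6, which hold 59 of the 81 genes. A TCT initiator (CCTTTC, or the same with T as its first or last letter) within 10 bases of the start on the sense strand was found in 17 of the 70 promoters of these genes (24.3%, 15.8 to 35.5), some of which have several, and in 3.36% of all 32851 promoters. The following examples, 30 bases each in the direction of the gene with the initiator in capitals, are of a gene with peaks in both lists and 3 with a start peak in DKO alone.
*Rpl38*: cggaagcctcgtTCTTTCcccgttctcttc
*Rplp2*: cgtcagcgtcttCCTTTCgccgccggacgc
*Rps6*: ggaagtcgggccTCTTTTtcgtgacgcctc
*Rpl28*: ctctcgtgtctcTCTTTCcgtctccggccg
*Rpl38*, whose protein is needed for normal patterning of the axial skeleton, and *Rplp2* had the C of the initiator exactly at the annotated start. The start peaks of *Rpl38* were 12.6 in WT and 8.76 in DKO.

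Start peaks of ribosomal protein genes held a median of 39.5 CpGs in WT (33 to 43) and 38 in DKO (36 to 41) per deposited window, where promoter peaks held 36 and 38 and all peaks 8 and 21. The range was wide, from 8 to 60 CpGs in WT and from 8 to 70 in DKO. CpG content at these starts was thus that of promoter peaks and well above that of WT peaks as a whole.

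Other genes of protein synthesis were counted in the same way. Of 58 genes named Eif and a digit, 23 had a start peak in WT (39.7%, 28.1 to 52.5) and 44 in DKO (75.9%, 63.5 to 85.0), and 21 had one in DKO alone. Most of these encode initiation factors, which bring ribosomes to messenger RNA, and the names also take in kinases of eIF2, the eIF4E-binding proteins and the Argonautes. Of 6 Eef genes, most of them for elongation factors, 2 had a start peak in WT (*Eef1e1* and *Eef1g*, 9.68 to 70.0%) and all 6 in DKO (61.0 to 100%). Of 14 ribosome biogenesis genes, 8 had a start peak in WT (57.1%, 32.6 to 78.6) and 12 in DKO (85.7%, 60.1 to 96.0). *Npm1*, *Ncl* and *Fbl* had one in both lists and *Bop1*, *Nop58*, *Pes1* and *Rrp9* in DKO alone. Of the 15 genes left out by name, such as the S6 kinases, 5 had a start peak in WT (33.3%, 15.2 to 58.3) and 9 in DKO (60.0%, 35.7 to 80.2). A start peak in DKO alone stood at 36.2% of the genes named Eif, against 27.6% of genes with a CpG-rich start. For all genes the shares with a start peak were 21.2% in WT and 33.7% in DKO, and for genes with a CpG-rich start 34.5% and 55.6%. The genes left out by name were thus near the shares of CpG-rich starts.

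Genes of mitochondrial ribosomal proteins, which serve translation inside mitochondria, gave another picture. Of 76, 41 had a start peak in WT (53.9%, 42.8 to 64.7) and 52 in DKO (68.4%, 57.3 to 77.8), with 21 in DKO alone (27.6%) and 10 in WT alone (13.2%). Of genes with a CpG-rich start, 27.6% had one in DKO alone and 6.55% in WT alone, so the count in DKO alone is not a result about the mitochondrial genes. Their WT share with a start peak was near that of the cytosolic genes. Their DKO share lay below that of the cytosolic genes, with intervals that did not overlap. The intervals do not contain the spread between libraries, and this difference between gene lists was not tested.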

How the data were processed

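Gata4 ChIP-seq libraries from WT and DKO Flk1(+) cells were called by the authors with DNAnexus software in mm9, with ES cells of the matching genotype as background. The aligner and the treatment of duplicate reads are not given in the sources used here. The deposited values are a signal (profile height in Flk1(+) and in ES cells), a ratio of these heights, the −log10 of a q-value and a rank score, used only to order peaks. The ratio takes an ES height under 1 as 1, as checked on all 43143 peaks. The column headers of the lists name no library. The genotypes, which the names of the deposited lists also give, were read from the peak totals in the study's methods. The lists give no read counts per peak, so no counting interval could be given for a height. By the study's methods the DKO Flk1(+) library had more mapped reads than the WT one.

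Peaks were assigned by the deposited gene names and distances, and the deposited sequences were checked against the mm9 genome. Start sites of 22238 protein-coding genes came from GENCODE vM1, to which *Rpl41* was added from the lists, and the longest entry was kept for a repeated symbol. Peaks were called shared when positions lay within 500 bp, and pairs were mutual nearest neighbours. No test was made, since there was 1 library per condition. The genes named were the ribosomal protein genes by presence, and with values the 5 tallest peaks of each list, the 3 lowest and 3 highest ratios, the 5 highest ES heights, the 5 tallest at genes with a start peak in 1 list, the P-stalk genes and *Rpsa*, and peaks with WGATAA or over 1 kb from the start (the longer classes by range). A few items that this rule covers are not reported here. Further genes named as examples were chosen after their values were seen. The members and lists were chosen with earlier results of these data known. Steps were tested on simulated data. The alternatives were other distances, overlaps, motif windows, scalings and peak subsets. Intervals were computed with SciPy 1.17.1 under Python 3.11.15, tables with pandas 2.3.3 and NumPy 2.4.6, and figures with Matplotlib 3.10.9.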

Additional observations from a re-analysis of the deposited data

How the results depend on the processing

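Of 49 values under other settings, 35 kept their place (within 1.5 times for counts, within the interval for other values) and 14 moved, and none could be set against replicate error. The number of ribosomal protein genes with a peak depended most on peak strength: in the better-ranked part of the WT list 18 genes remained of 50, where 59 remained of 79 in DKO, and among peaks of height 10 or more, a limit chosen after seeing the data, 26 remained in WT and 34 in DKO. With as many best-ranked DKO peaks as the WT list holds, 77 remained, and without peaks near another gene's start 37 in WT and 60 in DKO, both also chosen after seeing the data. No share of all genes is given under these cuts, so the counts do not set these genes apart from others. With a counterpart within 100 bp, the shared share was 58.6% in WT and 23.6% in DKO, and that of WT start peaks was 63.6% (48.9 to 76.2), no longer clear of the 51.2% of CpG-rich promoter peaks. With only the tallest peak of each gene, the DKO start peaks had a median height of 8.74 and a median ES height of 1.96, which was 1.93 within 250 bp of the start. Divided by the median over all shared pairs, the DKO to WT ratio was 1.03. WGATAA in the central 200 bp was found in 15.7% of WT and 8.05% of DKO peaks, and with G allowed as the last letter in 28.2% of DKO peaks. CpGs per 100 bp of DKO peaks were 7.19, 7.71 in the central part of the window and 7.78 with only the tallest peak of each gene. Leaving out a replicate was not possible with 1 library per condition, and the WT Flk1(+) library had fewer mapped reads than the DKO one, so a start without a WT peak cannot be called unbound.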

Other observations

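Genes named Psma, Psmb, Psmc or Psmd and a digit, nearly all of them for proteasome subunits but with the recombination factor *Psmc3ip* among them, had a start peak at 18 of 40 in WT (45.0%, 30.7 to 60.2) and at 29 in DKO (72.5%, 57.2 to 83.9). Genes with a CpG-rich start had shares of 34.5% and 55.6%, inside the interval in WT and just below it in DKO. A start peak in DKO alone stood at 13 of the 40 (32.5%) and in WT alone at 2 (5%). These were near the 27.6% and 6.55% of genes with a CpG-rich start. Start peaks of the genes named Psma to Psmd had a median height of 9.29 in WT and 7.93 in DKO, where promoter peaks had 8.44 and 7.56. Start peaks of the genes named Eif had median heights of 10.4 in WT and 8.01 in DKO, and those of mitochondrial ribosomal protein genes 9.58 and 9.03.

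In WT the ribosomal protein start peaks had a median rank of 13000 of 20410, where 1 is the best, and in DKO of 9994 of 22733. Promoter peaks had median ranks of 12297 and 12144. In DKO the start peaks of these genes thus stood higher in the list than promoter peaks did (8698 to 11650 for the median), and in WT they did not (11276 to 15060).

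*Rps19*, a gene mutated in Diamond-Blackfan anemia, had a start peak of 5.40 in WT and of 12.5 in DKO, the largest excess of DKO over WT among the 37 genes with a start peak in both lists, by their tallest start peaks. The positions lay 527 bp apart, 497 bp upstream of the start in DKO and 30 bp downstream in WT, and so were not counted as shared. This gene was singled out after its values were seen.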
